A study of Mus musculus with 16 samples.

Results

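The BCL2 family sets the threshold for mitochondrial apoptosis. Its pro-survival proteins (BCL2, BCL-XL, BCL-w and MCL1) hold the effectors BAX and BAK in check, and the BH3-only proteins, which respond to stress, bind the pro-survival proteins or engage the effectors directly, after which the effectors permeabilize the outer mitochondrial membrane and cytochrome c is released. Small cell lung cancer (SCLC) is known for high *BCL2* expression in many tumors, and BH3 mimetic drugs act on this protein family. The 10 genes examined here encode the pro-survival proteins (*Bcl2*, *Bcl2l1* for BCL-XL, *Bcl2l2* for BCL-w, *Mcl1*), the effectors (*Bax*, *Bak1*) and the BH3-only proteins (*Bcl2l11* for BIM, *Bbc3* for PUMA, *Pmaip1* for NOXA, *Bid*). A peak was assigned to a gene when, of all protein-coding start sites, the one nearest to the centre of the peak belonged to that gene. Of 21924 protein-coding genes in the annotation the 10 genes are the members, and of 80367 listed peaks 78 were assigned to them.

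The data are ATAC-seq peaks of SCLC cells from *TKO*;*Hes1* GFP/+ mice, a tumor model in which an adenovirus removes floxed *Rb*, *p53* and *p130* in the lung and 1 allele of *Hes1* carries GFP. The virus expresses Cre from the CMV promoter, which is not restricted to 1 cell type. The virus was given to young adult mice through the trachea, tumors were collected several months later and pooled within each mouse, and viable cells negative for blood and endothelial surface markers and positive for CD24 were sorted by GFP. GFP high cells are the non-NE and GFP neg cells the NE SCLC cells, and both come from mice with all of these alleles. By this design p53, which is known to activate *Bbc3*, *Pmaip1* and *Bax*, is meant to be deleted in both groups. Its deletion in the sorted cells was not tested here. The labels give 4 sorted pairs from 3 mice, 1 of which gave 2 pairs, and 8 libraries on 2 lanes each, 16 runs in all with 8 per group. The lists hold peaks that the authors called more accessible (here "opened") or less accessible (here "closed") in GFP high than in GFP neg cells. Only the direction of a peak and its mean normalised count over all libraries were used. This mean pools both groups, so it describes how strong a peak is and not how far it changed, and with 1 pooled value per peak no spread over libraries can be given and the depth is unknown. The populations are bulk samples, in which a smaller share of cells with an open site and a less open site in each cell cannot be told apart.

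Most listed peaks at BCL2 family genes were opened in GFP high cells. Of the 78 peaks 61 were opened and 17 closed, an opened share of 78.2% (95% Wilson interval 67.8 to 85.9%). Over all listed peaks the opened share was 50.8%. All intervals given here cover counting error only. Peaks of 1 gene share a locus and are not replicates, and no test over samples could be made. All 10 members had 1 or more listed peaks, as had 66.5% of all protein-coding genes. In 9 of the 10 members opened peaks outnumbered closed peaks, a count whose share over all protein-coding genes is not given here. The exception was *Bcl2*, with 8 opened and 9 closed peaks. This balance at *Bcl2* depends on how peaks are assigned and filtered. It was 8 opened and 3 closed for peaks in the gene or 10 kb of it, 5 and 4 at a mean normalised count of 30 or more, 2 and 4 within 100 kb of the start site, and 0 and 2 with start sites of any gene type. Without *Bcl2*, 53 of 61 peaks (86.9%) were opened. Among the members with 5 or more listed peaks, *Mcl1* and *Pmaip1* had none closed. Of all genes with 5 or more listed peaks, 718 of 5358 (13.4%) had none closed.

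**Figure D1:**
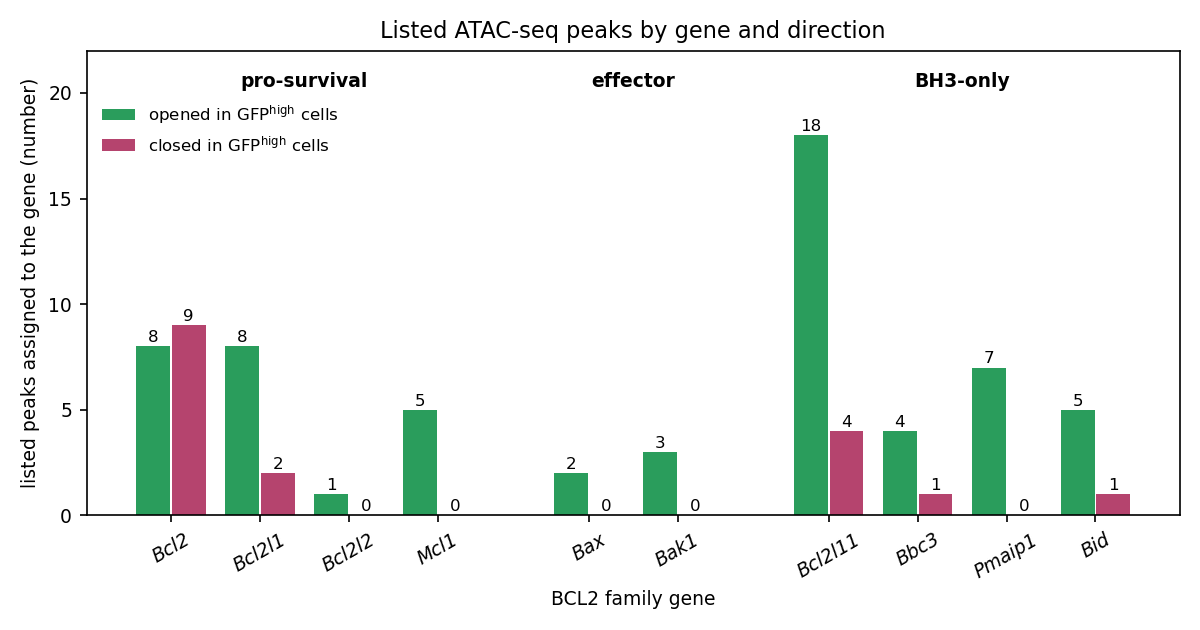
Number of listed peaks assigned to each BCL2 family gene (vertical axis), opened (green) or closed (red) in GFP high cells, with the genes grouped by role. *Bcl2l11* has the most opened peaks (18), and with this assignment *Bcl2* is the gene where closed peaks (9) outnumber opened peaks (8).

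By role, the opened share was 66.7% for the pro-survival genes (22 of 33 peaks, interval 49.6 to 80.2%), 85.0% for the BH3-only genes (34 of 40, interval 70.9 to 92.9%) and 100% for the effectors (5 of 5, interval 56.6 to 100%). These intervals overlap. The pro-survival interval holds the 50.8% of all listed peaks, while the intervals of the BH3-only genes and the effectors lie above it. Of the 34 opened BH3-only peaks 14 lie within 1 non-coding gene near *Bcl2l11* and are not independent, so that interval understates the uncertainty. Of the 5 effector peaks 4 were within 1 kb of an annotated start site, where 70.4% of all listed peaks were opened. The interval for these 4 effector peaks, all opened, was 51.0 to 100% and holds that share. All 9 closed *Bcl2* peaks fall in the pro-survival group, which otherwise has 2 closed peaks, both at *Bcl2l1*.

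The same direction appeared at the promoters. A promoter peak of a gene is one whose centre lies within 1 kb of one of the gene's own annotated start sites. Such a peak was opened at 8 of the 10 members, against 28.6% of all protein-coding genes, and closed at 1 member, *Bcl2*, against 8.65% of all protein-coding genes. *Bcl2l2* had no listed promoter peak. Across all genes promoter peaks were more often opened than other peaks. Of all listed peaks within 1 kb of any annotated start site, coding or not, 70.4% were opened, and 13 of the 14 such peaks of the members were (92.9%, interval 68.5 to 98.7%). Away from start sites the opened share was 47.1% for all listed peaks and 75.0% for the members (48 of 64 peaks, interval 63.2 to 84.0%). At promoters the interval of the members holds the share of all listed peaks, and away from them it does not. The 48 opened peaks include 14 within 1 non-coding gene near *Bcl2l11* and 8 in 1 intron of *Bcl2*. Such peaks are not independent, so the interval understates the uncertainty and cannot decide whether the members differ. Without *Bcl2* the promoter count was 13 of 13 (interval 77.2 to 100%), and this interval does not hold the 70.4%. No difference from all listed peaks was tested.

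Markers of the sorted populations were examined in the same lists. Of the NE markers reported, *Insm1* had 28 closed and 0 opened peaks, *Calca* 4 closed and 0 opened, and *Chga* 6 closed and 8 opened. Each of these genes had a closed promoter peak, and *Syp* had no listed peak. Of 77 peaks at 5 non-NE and club cell markers (*Hes1*, *Rest*, *Notch2*, *Yap1*, *Scgb1a1*) 57 were opened (74.0%), beside 50.8% of all listed peaks. All 5 genes had an opened promoter peak, beside 28.6% of all protein-coding genes. *Hes1* had 26 of these opened peaks and 11 closed peaks. The cells were sorted by GFP expressed from the *Hes1* locus, so the *Hes1* peaks are no independent check of the populations. Peaks at markers of other cell types were also listed. Leukocyte genes (*Ptprc*, *Cd3e*, *Cd68*, *Lyz2*) had 13 opened and 7 closed peaks, and *Ptprc*, the gene of the CD45 protein used to remove leukocytes, had 11 of these opened peaks. Endothelial genes (*Pecam1*, *Cdh5*, *Kdr*) had 10 opened and 35 closed peaks, of which *Cdh5* had 23 closed, while *Kdr* had an opened promoter peak. Of the fibroblast genes, *Col1a1* had 7 opened and 0 closed peaks, while *Col1a2* had 2 and *Pdgfra* 5 closed and 0 opened. Promoter peaks among the leukocyte and fibroblast genes were opened at *Cd68* and *Col1a1* and closed at *Col1a2*. Marker peaks were assigned at any distance, up to 586 kb at *Ptprc* and 581 kb at *Cdh5*. The part of such cells in the BCL2 family peaks was not tested.

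*Bcl2*, the target of the BH3 mimetic venetoclax, had peaks of both directions. The gene spans 176 kb on the reverse strand (mm10, chr1:106538178-106714274). All 8 of its opened peaks lay in the first intron, 6 of them at chr1:106549485-106591739 and 2 at chr1:106629497-106630417. The opened peak with the highest mean normalised count, 86.5, was at chr1:106629909-106630417, 83.0 kb downstream of the start site. Between these blocks lay 2 closed peaks with mean normalised counts of 26.5 and 21.6. Another 5 closed peaks lay beyond the downstream end of the gene, at chr1:106478053-106527066, in intergenic sequence. The strongest of them, chr1:106507947-106508351, had a mean normalised count of 103.7 and is 205 kb from the start site. Its assignment to *Bcl2* rests on distance alone, as does that of the other 4. Of the opened peaks, those at chr1:106549485-106567017 also lay in an intron of *D630008O14Rik*, an antisense non-coding gene. None of the 8 opened peaks stayed with *Bcl2* when start sites of any gene type were used.

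The closed promoter peak of *Bcl2*, chr1:106712335-106712659, had a mean normalised count of 102.2, at percentile 91.1 of the closed list. Its centre falls in coding sequence of the gene, 682 bp downstream of the nearer of 2 annotated start sites, and neither start site had a listed peak centred within 500 bp. A further closed peak, chr1:106734300-106734609, with a mean normalised count of 81.4, lay 20.2 kb upstream, with its centre in intron 8 of the neighbouring gene *Kdsr* and its end in the adjoining exon. All opened peaks thus lay inside the gene, and the closed peaks lay at both ends of the locus and, for 2 of the 9, between the opened peaks. A site that is missing from both lists may be open alike in both populations, closed in both, or changed by less than the authors' limits.

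**Figure D2:**
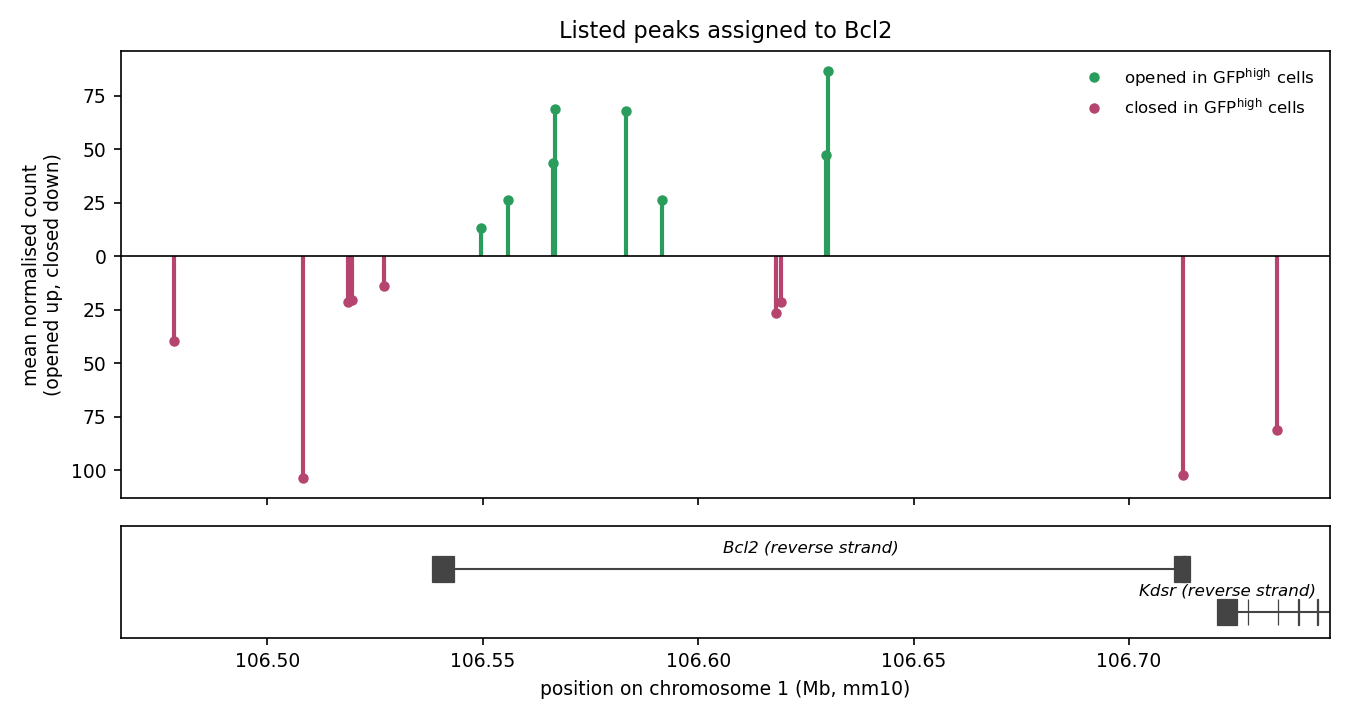
Listed peaks assigned to *Bcl2* along chromosome 1 (horizontal axis, Mb, mm10), each as a line whose length is the mean normalised count over all libraries, upward for opened (green) and downward for closed (red) peaks, with the exons of *Bcl2* and *Kdsr* drawn as boxes. The 8 opened peaks lie inside the gene, and 7 of the 9 closed peaks lie in its coding exon near the start, upstream of it or beyond its downstream end.

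*Bcl2l1*, whose main product BCL-XL protects many epithelial cells, had 8 opened and 2 closed peaks, all of them centred within the gene (chr2:152780668-152831728, reverse strand). Its start region held 2 opened promoter peaks. The stronger, chr2:152831040-152831841, had a mean normalised count of 542.7, at percentile 98.0 of the opened list, and the other, chr2:152830553-152830820, had 187.7. The remaining 8 peaks lay in intron 2, up to 25.2 kb from the nearest start site. Of these the strongest opened peak was chr2:152820378-152820733 (mean normalised count 109.2) and the strongest closed peak chr2:152805902-152806405 (122.4). The latter was the closed peak with the highest mean normalised count of any member. It lay 575 bp from an opened peak, chr2:152804901-152805326, with a mean normalised count of 95.5, so that sites of opposite direction stood side by side in this intron.

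**Figure D3:**
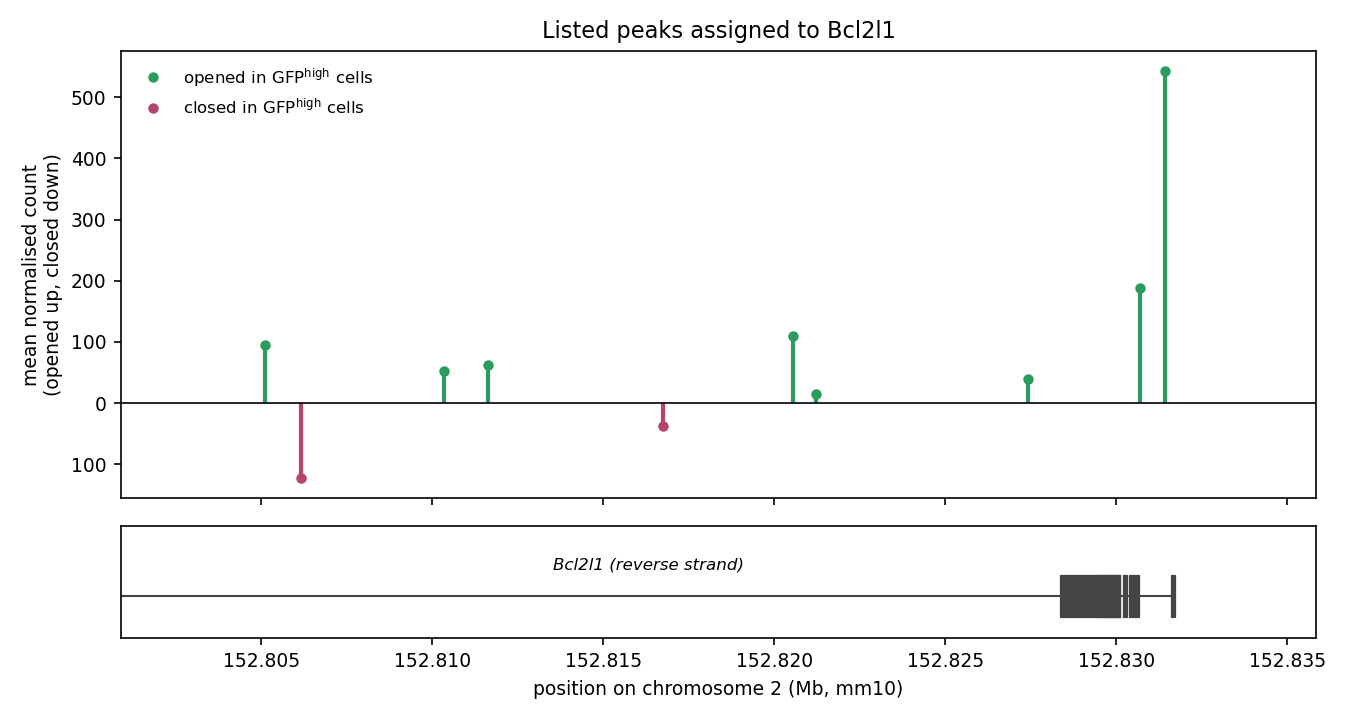
Listed peaks assigned to *Bcl2l1* along chromosome 2 (horizontal axis, Mb, mm10), drawn with the mean normalised count over all libraries upward for opened (green) and downward for closed (red) peaks, above the exons of the gene within the region. The start region on the right holds the strongest opened peak (542.7), and the closed peak of 122.4 lies beside an opened peak of 95.5 in the intron.

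*Mcl1*, which encodes a short-lived pro-survival protein, had 5 peaks, all opened, within 9.37 kb of its start site. The promoter peak chr3:95658514-95659230 covers the start site and had a mean normalised count of 400.8. The other 4 peaks were intergenic, 1 of them 4.97 kb upstream and 3 downstream of the gene, and 3 of the 4 had mean normalised counts between 152.5 and 176.8. The median over the 5 peaks, 164.2, was the highest of any member for opened peaks. *Bcl2l2* had a single listed peak, chr14:54887447-54887606, opened, with a mean normalised count of 16.7. It lies in annotated untranslated sequence of the gene, 4.02 kb downstream of a start site, and inside an intron of *Gm20521*, an overlapping annotated gene.

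Both effector genes had opened peaks only, close to their start sites. *Bax* had 2, chr7:45466519-45467031 over the start site (mean normalised count 116.4) and chr7:45467383-45467650, 618 bp upstream (47.9). *Bak1* had 3 within 1.05 kb of a start site. Its promoter peaks were chr17:27028508-27028747 (mean normalised count 78.1) and chr17:27028360-27028440 (11.0), and the third, chr17:27027431-27027863, had 77.5 in the first intron. The span in which a peak would be assigned to *Bak1* is short, 5.79 kb up to the midpoints to neighbouring start sites, and that of *Bax* is 13.2 kb. This span was 295 kb for *Bcl2* and 342 kb for *Bcl2l11*, the members with the most peaks, but also 284 kb for *Pmaip1* with 7 peaks and 47.1 kb for *Bcl2l1* with 10.

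*Bcl2l11*, whose product BIM is a BH3-only protein that can bind all the pro-survival members, had the most listed peaks of the family by the nearest protein-coding start site. With start sites of any gene type it had 5 peaks and *Bcl2l1* 10, and in the gene or 10 kb of it 6 and 12. With 18 opened and 4 closed peaks by the first rule it had as many as or more than all but 3.64% of the genes with a listed peak (531 of 14590 genes had 22 or more). Among the protein-coding genes with the most similar numbers were *Tcf7l2*, also with 18 opened and 4 closed peaks, and *Chd6*, with 18 and 5. The start region of *Bcl2l11* (chr2:128126038-128162547, forward strand) held a row of opened peaks. The promoter peak chr2:128125628-128126207, centred 121 bp upstream of the start site, had a mean normalised count of 524.0. The peak chr2:128127205-128127700, 1.40 kb downstream in the first intron, had 641.8, at percentile 98.8 of the opened list and the highest of all 78 peaks.

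Most other *Bcl2l11* peaks lay far downstream of the gene. Of its 18 opened peaks 14 fell within *Gm14005*, as did 1 of its 4 closed peaks. *Gm14005* is the long non-coding RNA gene also called *Morrbid*, known as a regulator of *Bcl2l11* in myeloid cells, and it is transcribed on the opposite strand. The strongest of these opened peaks, chr2:128179522-128180537, had a mean normalised count of 397.0 and lies 54.0 kb from the *Bcl2l11* start site, while the farthest lay at 214 kb. Start sites of *Gm14005* itself, around chr2:128429234-128429366, had 2 opened peaks within 1 kb, which are nearer to other protein-coding start sites and are not among the 78. The strongest closed peak assigned to *Bcl2l11*, chr2:128319013-128319461, had a mean normalised count of 66.5 and also lies in an intron of *Gm14005*. The other 3 closed peaks had 14.2 to 29.9. These peaks were assigned by distance, and whether they act on *Bcl2l11*, on *Gm14005* or on another gene was not tested.

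**Figure D4:**
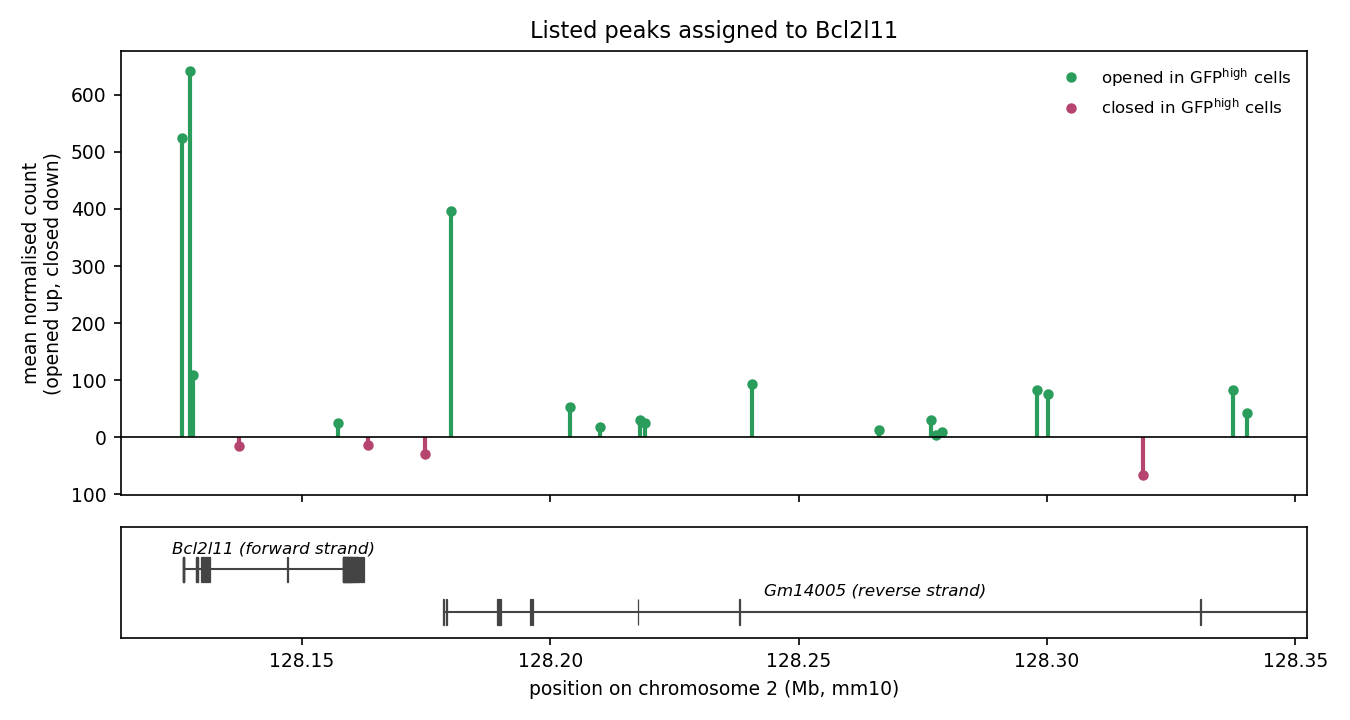
Listed peaks assigned to *Bcl2l11* along chromosome 2 (horizontal axis, Mb, mm10), drawn with the mean normalised count over all libraries upward for opened (green) and downward for closed (red) peaks, above the exons of *Bcl2l11* and of the part of *Gm14005* in the region. The strongest opened peaks (524.0 and 641.8) lie at the start of the gene, and 14 of the 18 opened peaks lie within *Gm14005*.

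The other BH3-only genes had few closed peaks. *Bbc3*, a known p53 target, had 4 opened and 1 closed peak. Its promoter peak chr7:16310018-16310479, centred 632 bp downstream of the start site in the first intron, was opened with a mean normalised count of 271.3. The closed peak, chr7:16338380-16338602 (36.9), lay in intron 6 of the neighbouring gene *Sae1*, as did an opened peak 2.40 kb away, chr7:16341005-16341314, with 32.7. *Pmaip1*, another known p53 target, had 7 peaks, all opened. It had 1 peak, also opened, in the gene or 10 kb of it and with start sites of any gene type. The promoter peak chr18:66458369-66458763 covers the start site and had a mean normalised count of 70.1. The strongest was chr18:66505521-66506091, 47.2 kb downstream, with 72.9, in an intron of a non-coding gene. *Bid*, whose product is activated by caspase 8 cleavage, had 5 opened and 1 closed peak. The counts were 2 and 1 in the gene or 10 kb of it, and 1 and 0 with start sites of any gene type. Its promoter peak chr6:120916460-120916987 had a mean normalised count of 274.7, and the opened peak chr6:120915338-120916020, 1.17 kb downstream in the first intron, had 348.2. The closed peak chr6:120901821-120902067 (32.4) lay in the same intron, and 3 of the opened peaks lay upstream in introns of *Mical3*.

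The members' peaks had somewhat higher medians than listed peaks in general. Their median mean normalised count was 58.0 for opened peaks (quartiles 26.3 and 95.5), against 40.7 for all opened peaks (18.5 and 102.1), and 32.4 for closed peaks (21.4 and 66.5), against 25.8 (14.8 and 49.9). The quartile ranges overlap widely. Of the 61 opened peaks 8 were in the highest 10% of their list. Peaks near start sites stood out among them, with a median of 187.7 for the 13 opened peaks within 1 kb of any start site, non-coding genes included, and 45.2 for the 48 others. Among all opened peaks these medians were 137.5 and 32.2, so the members follow the general difference between promoters and other sites.

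Distances to the start site overlapped between the directions, with the widest gap in shares within 10 kb. Of the 61 opened peaks 24 (39.3%, interval 28.1 to 51.9%) had their centre within 10 kb of the nearest start site. Of the 17 closed peaks 1 did (5.88%, interval 1.05 to 27.0%). The shares of all listed peaks were 39.0% and 21.3%. The intervals of the members do not overlap at this distance, but peaks of 1 gene are not replicates and the difference was not tested. Within 30 kb the counts were 29 and 7 (47.5% and 41.2%), beside 62.1% and 41.7%, and within 50 kb 34 and 9 (55.7% and 52.9%), beside 73.7% and 54.0%. Median distances were 31.5 kb for opened and 48.7 kb for closed peaks of the members, and 17.5 and 42.4 kb for all listed peaks. Without *Bcl2* the members' medians were 20.0 and 26.5 kb. By the position of the centre, 37 of the 78 peaks lay in the body of the member they were assigned to, and 17 lay in no annotated gene. Counted over all 78 peaks, 21 were over 100 kb from the start site, of which *Bcl2* had 11 and *Bcl2l11* had 10. Peaks of the members had median GC contents of 52.5% (opened) and 49.5% (closed) in their central 200 bases, against 50.8% and 48.5% for all listed peaks. The 13 opened peaks within 1 kb of any start site had a median of 65.5%.

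Short strings that transcription factor families are known to bind were searched on both strands of the central 200 bases of each peak, without mismatches. For peaks under 200 bp wide, 16 of the 78, this window runs into sequence on either side of the peak, and some matches lie there. The strings were TGANTCA (AP-1), TGTTTAC (FOX), GGAATG (TEAD), CACTTNA (NKX2), TTGGCA (NFI), CAGCTG (E-box), TGACGTCA (CRE) and TGGGAA (RBPJ), and the p53 response element was searched by its consensus. The RBPJ and TEAD strings can overlap, as can those of AP-1 and NKX2. The TEAD string was in 13 of 61 opened peaks of the members (21.3%, interval 12.9 to 33.1%) and in 0 of 17 closed peaks (upper limit 18.4%). Over all listed peaks it was in 18.1% of opened and 8.77% of closed peaks. The AP-1 string was in 7 opened (11.5%) and 6 closed peaks (35.3%, interval 17.3 to 58.7%), against 10.6% and 26.4% of all listed peaks. The E-box string was in 10 opened (16.4%) and 6 closed peaks (35.3%), against 12.0% and 22.6%. In each of these cases the interval of the members holds the share of all listed peaks of the same direction, and the members showed no detectable departure from it at this number of peaks.

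The remaining strings were counted in the same way. The NFI string was in 14 opened and 3 closed peaks (23.0% and 17.6%), beside 18.01% and 13.5% of all listed peaks. The RBPJ string was in 13 opened and 3 closed peaks (21.3% and 17.6%), beside 20.7% and 16.3%. The NKX2 string was in 10 opened and 4 closed peaks (16.4% and 23.5%), beside 18.6% and 14.9%. The FOX string was in 6 opened and 2 closed peaks (9.84% and 11.8%), beside 6.84% and 9.70%. The CRE string was in 1 opened peak, the *Pmaip1* promoter peak, and in 1 closed peak, that upstream of *Bcl2*, which is 1.64% and 5.88% of the members' peaks (intervals 0.290 to 8.72% and 1.05 to 27.0%), while 0.745% of all opened and 0.493% of all closed peaks held it. The closed share rests on a single peak. The p53 response element was in none of the 78 peaks, and in 3 opened and 8 closed peaks of all those listed. So strict a search matches so few peaks anywhere that its absence from the members carries no information about them. A match describes the letters of a window and not binding. Of the 13 opened peaks within 1 kb of any start site 4 held any of the strings in their central 200 bases.

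The strongest peaks away from start sites are printed for *Bcl2l11*, *Bcl2* and *Bcl2l1*, the members with the most peaks, to show the sequence behind these counts. Each is the central 200 bases of the peak, on the forward strand of mm10 (read from GRCm38.p6, the same assembly), with matches to the strings above in capitals. The 2 *Bcl2l11* stretches hold no match. The first of them is from the GC-rich first intron and the second from an intron of *Gm14005*.
*Bcl2l11* opened, chr2:128127353-128127552: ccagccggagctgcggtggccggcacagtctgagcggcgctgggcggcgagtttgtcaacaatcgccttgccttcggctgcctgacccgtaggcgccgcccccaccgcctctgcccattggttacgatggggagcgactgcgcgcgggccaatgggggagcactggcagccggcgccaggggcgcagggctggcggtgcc
*Bcl2l11* closed, chr2:128319138-128319337: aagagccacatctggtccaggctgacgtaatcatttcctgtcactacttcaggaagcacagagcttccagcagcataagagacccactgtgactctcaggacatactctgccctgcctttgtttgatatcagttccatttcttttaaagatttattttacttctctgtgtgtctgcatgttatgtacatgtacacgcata
*Bcl2* opened, first intron, chr1:106630064-106630263, with 1 E-box string: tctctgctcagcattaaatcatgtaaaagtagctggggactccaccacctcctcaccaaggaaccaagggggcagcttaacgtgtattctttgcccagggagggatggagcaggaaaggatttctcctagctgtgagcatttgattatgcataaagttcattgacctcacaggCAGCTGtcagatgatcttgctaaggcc
*Bcl2* closed, intergenic, chr1:106508050-106508249, with 1 NKX2 string on the reverse strand: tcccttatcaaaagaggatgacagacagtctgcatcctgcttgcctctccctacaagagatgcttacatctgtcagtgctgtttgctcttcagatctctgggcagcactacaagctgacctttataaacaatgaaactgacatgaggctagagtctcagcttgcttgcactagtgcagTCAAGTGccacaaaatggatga
*Bcl2l1* opened, intron 2, chr2:152820456-152820655, with an RBPJ string on the reverse strand and TEAD strings on either strand: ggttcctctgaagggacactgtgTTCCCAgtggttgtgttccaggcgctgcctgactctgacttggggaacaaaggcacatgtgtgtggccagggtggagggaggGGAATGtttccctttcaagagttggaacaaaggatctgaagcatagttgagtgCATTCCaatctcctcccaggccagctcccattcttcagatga
*Bcl2l1* closed, intron 2, chr2:152806054-152806253, with overlapping AP-1 and NKX2 strings: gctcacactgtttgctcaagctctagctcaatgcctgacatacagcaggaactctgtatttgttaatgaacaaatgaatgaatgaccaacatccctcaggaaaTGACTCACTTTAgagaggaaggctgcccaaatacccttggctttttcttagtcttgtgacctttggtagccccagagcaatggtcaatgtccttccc

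Another 3 stretches were chosen after their values were seen. The first is from the closed peak in coding sequence near the *Bcl2* start sites, shown as the only closed promoter peak of a member. The second is from the closed peak upstream of *Bcl2* in *Kdsr*, shown for its CRE string. The third is from the opened peak at the *Bcl2l11* start site, shown as a GC-rich promoter stretch without a match. Outside this central window the same peak holds FOX and E-box strings. The bases are again those of the forward strand, which is the antisense strand of *Bcl2*.
*Bcl2* closed, coding exon, chr1:106712398-106712597, with 1 E-box string: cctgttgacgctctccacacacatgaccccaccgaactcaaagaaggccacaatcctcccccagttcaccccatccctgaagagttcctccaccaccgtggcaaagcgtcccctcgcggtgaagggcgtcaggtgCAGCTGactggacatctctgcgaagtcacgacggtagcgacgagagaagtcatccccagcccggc
*Bcl2* closed, *Kdsr* intron 8 with the edge of the adjoining exon, chr1:106734355-106734554, with the CRE string: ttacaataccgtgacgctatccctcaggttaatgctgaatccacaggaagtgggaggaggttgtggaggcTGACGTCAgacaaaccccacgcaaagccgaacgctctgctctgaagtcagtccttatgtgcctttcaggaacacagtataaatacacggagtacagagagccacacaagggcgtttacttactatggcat
*Bcl2l11* opened, start region, chr2:128125818-128126017, with no match: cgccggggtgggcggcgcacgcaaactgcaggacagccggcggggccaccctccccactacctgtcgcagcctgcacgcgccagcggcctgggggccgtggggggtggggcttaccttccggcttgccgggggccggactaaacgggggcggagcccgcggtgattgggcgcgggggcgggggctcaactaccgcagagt

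Peaks at a wider list of 39 apoptosis genes were also more often opened than closed. Of their 142 listed peaks 91 were opened (64.1%, interval 55.9 to 71.5%), beside 50.8% of all listed peaks. Within 1 kb of any annotated start site lay 37 of the 142 peaks, beside 12920 of all 80367. Of these 37 peaks 30 were opened (81.1%, interval 65.8 to 90.5%), beside 70.4% of all such listed peaks. Away from start sites 61 of 105 were opened (58.1%, interval 48.5 to 67.1%), beside 47.1%. A listed peak was present at 32 of the 39 genes (82.1%, interval 67.3 to 91.0%), beside 66.5% of all protein-coding genes. An opened promoter peak was present at 21 of the 39 genes and a closed one at 3, beside 28.6% and 8.65% of all protein-coding genes. In the rest of the BCL2 family, 7 of 13 genes had an opened promoter peak. These were the BH3-only genes *Bad*, *Bik* and *Bmf*, the pro-survival genes *Bcl2a1a* and *Bcl2a1d*, and *Bcl2l12* and *Bcl2l14*. The *Bcl2a1* genes are near-identical copies, so the assignment of reads among them is uncertain. *Bmf* had 10 opened and 1 closed peak. *Bcl2l14* went the other way, with 8 opened and 17 closed peaks and promoter peaks in both lists. *Bok*, an effector relative of *Bax*, had 2 opened and 4 closed peaks with a closed promoter peak. Closed peaks also outnumbered opened peaks at *Bcl2l12* (2 against 1), *Hrk* (1 against 0) and *Bcl2l10* (1 against 0).

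Downstream of the mitochondria, *Casp9*, *Apaf1* and *Cycs* of the apoptosome had an opened promoter peak, and *Casp8*, the initiator caspase of death receptors, had a closed one. The single listed peak of *Casp9* had a mean normalised count of 740. Of 6 inhibitor of apoptosis genes and antagonists, *Birc5* and *Diablo* had an opened promoter peak. Of 4 other mitochondrial genes, *Endog*, *Vdac1* and *Vdac2* had an opened promoter peak. In all, *Vdac1* had 6 opened and 5 closed peaks, *Vdac2* 3 and 5, and *Endog* 2 and 0. In 4 of the 5 groups of the wider list the interval of the opened share held the 50.8% of all listed peaks. These were the rest of the BCL2 family (36 opened and 26 closed peaks, interval 45.7 to 69.5%), caspases and apoptosome genes (13 and 8, 40.9 to 79.2%), the inhibitors and antagonists (10 and 3, 49.7 to 91.8%) and the other mitochondrial genes (11 and 10, 32.4 to 71.7%). Death receptors and their adaptors had 21 opened and 4 closed peaks (84.0%, interval 65.3 to 93.6%), with an opened promoter peak at 5 of 8 genes (*Fas*, *Tnfrsf10b*, *Tnfrsf1a*, *Tradd*, *Cflar*). The promoter peaks of *Apaf1* and *Tradd* are nearer to the start sites of other genes and are not among the peaks assigned to them. The only opened peak assigned to *Apaf1* had a mean normalised count of 2.87, and its 2 closed peaks had a median of 47.4.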

How the data were processed

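ATAC-seq of sorted GFP high and GFP neg SCLC cells was processed by the authors, who trimmed adaptor and transposase sequence, aligned reads to mm10 with Bowtie2 2.3.4.1, removed duplicates with Samtools, called MACS2 narrow peaks with reads shifted and extended around the Tn5 cut, merged the peaks of all samples, counted reads per peak with bedtools and compared the groups with DESeq2 1.28.1. The lists hold peaks past the authors' limits on adjusted p and fold change. Peaks outside these limits were not analysed here. Whether lanes, or pairs of 1 mouse, were summed before the comparison is not given in the sources used here. The deposited signal is the mean over all libraries of normalised read counts, printed as the authors' value with no SD or n. Other deposited columns hold the authors' fold changes, standard errors, test statistics and p-values, and were not used. Depth per library is unknown.

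Peaks were assigned by their centre to GENCODE M21 basic start sites with pandas 2.3.3 and numpy 2.4.6 under Python 3.11.15. Sequence was read with pysam 0.24.0, intervals came from scipy 1.17.1 and figures from matplotlib 3.10.9. All 80367 peaks lie within the chromosomes of GRCm38.p6. Promoters were taken as 1 kb on either side of a start site, and intervals are Wilson intervals at 95%. Assignment, string search and merging were tested on simulated data. No test between groups was run. Named were all members with their promoter peaks and the strongest peak per list, genes of the wider list with a promoter peak or the 3 highest peak numbers, genes most like *Bcl2l11* in peak numbers, and the markers. Some genes that this rule takes are not reported here. The markers of other cell types, the peaks at *Gm14005*, the genes *Hrk* and *Bcl2l10* and some single peaks were named after their values were seen. Members and lists were chosen with earlier results of these data known. Alternatives were other assignments, a mean normalised count of 30 or more, promoter distances of 3 kb and 500 bp, merging of peaks within 100 bp, signal per width and strings in the whole peak.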

Additional observations from a re-analysis of the deposited data

How the results depend on the processing

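The opened share of the BCL2 family peaks stayed between 77.9% and 84.6% under each alternative run, which were a limit of 100 kb, gene bodies with 10 kb on either side, start sites of any gene type, a mean normalised count of 30 or more, and merging of peaks within 100 bp. The number of peaks fell from 78 to 35 when start sites of any gene type were used, because non-coding genes then take peaks, and the opened share was 82.9% there. The closed promoter peak of *Bcl2* was lost at a promoter distance of 500 bp, which left 0 members with one, and 7 instead of 8 members had an opened promoter peak. The share of peaks at promoters, 17.9%, was 28.2% at 3 kb. For the wider apoptosis list the opened share of 64.1% was 73.7% with gene bodies and 72.2% with start sites of any gene type. At a mean normalised count of 30 or more, 9 of the 10 members had a listed peak. The median of the opened member peaks was 1.43 times that of all opened peaks, and 1.18 times per peak width. With the whole peak searched in place of the central 200 bases, which is more sequence for wide peaks and less for narrow ones, the share of member peaks with a string rose from 20.5% to 30.8% for RBPJ, from 16.7% to 25.6% for AP-1 and from 10.3% to 16.7% for FOX. No paired analysis was possible because the deposited tables hold no value per sample, and for the same reason no library could be left out. With 78 peaks, shares by direction have wide intervals, and the depth behind each peak is unknown.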
